A study of Homo sapiens with 1 sample.

Results

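The G1/S cells were the 1469 cells with the highest RNA content of 8 replication genes among 12239 kept cells of 1 human neural differentiation culture. A cell was kept with 2000 to 10000 detected genes, a mitochondrial share of its UMIs (unique molecular identifiers, 1 per captured RNA molecule) from 0.01 to below 0.1, and fewer than 5 UMIs per 10000 from ANXA1, TFPI2 and CTGF together, a limit aimed at the contractile cells of the culture. The score of a cell was the sum of FAM111B, WDR76, DTL, CDCA7, MCM5, UNG, MCM6 and CCNE2 in UMIs per 10000 UMIs, and the 12% of kept cells with the highest score were taken. The group was thus chosen by these 8 genes, and their levels are a description of the choice, not a finding.

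The cells came from H9, an established human embryonic stem cell line, with its own human form of HAR123 (hHAR123, genotype WT). HAR123 is a human accelerated region inside the gene SMG6, and the study asked how its human, chimpanzee and mouse forms act in the making of neural progenitor cells (NPCs). The cultures were exposed to Dorsomorphin and SB431542, inhibitors that direct stem cells to a neural fate, first for 2 days attached with a Rock inhibitor and then for 5 days as floating bodies, and were replated for 7 days without them. The methods describe each genotype as a pool of 2 clones, dissociated before rosettes were selected. The other genotypes were not analysed here. There was 1 library and thus no replicate. No test was run, and every interval given is a 95% interval that covers counting error only.

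Before a cell copies its DNA, each future start site of replication is licensed in G1. The origin recognition complex (ORC), CDC6 and CDT1 load the MCM2 to MCM7 helicase ring onto DNA, and geminin (GMNN) blocks CDT1 once replication is under way. Cyclin E with CDK2 helps to release E2F transcription factors from RB proteins, and E2F drives many genes of replication. Replication-dependent histone RNA accumulates in S phase and mitotic RNA later, in G2 and M. Neural progenitors are known as a fast-cycling population, so that a culture holds cells at all of these stages.

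The library held 14726 cell barcodes, and the filter of the study left 13925. Of these, 189 cells failed the low mitochondrial limit and 1584 the limit on ANXA1, TFPI2 and CTGF, 87 of them both, so that 83.1% (82.5 to 83.7%) of all barcodes were kept. The G1/S cells had a median of 17136 UMIs and 5480 detected genes, against 16940.5 and 5419 in the other 10770 kept cells. Their median mitochondrial share was 5.17%, against 5.18%, and their ribosomal protein share was 14.7%, against 14.4%. The study used the upper limit on detected genes against multiplets, and the same limit was applied here. No doublet caller was run.

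The score of the G1/S cells ran from 7.89 to 26.0 UMIs per 10000 with a median of 9.90, and in the other cells it had a median of 1.99 and a highest value of 7.88. A G1/S cell held RNA of a median of 7 of the 8 genes, another kept cell of 3. FAM111B, a serine protease gene related to FAM111A, was at 134 CPM (UMIs of a gene per 1000000 UMIs, both summed over the cells of a group) against 23.5. DTL, which directs the destruction of CDT1 in S phase, was at 258 against 59.6 CPM. MCM5 and MCM6, both parts of the helicase ring, were at 113 and 179 CPM against 34.9 and 54.8, and cyclin E2 (CCNE2) was at 42.3 against 6.63. The limit did not fall at a natural gap. The 100 cells just inside it (score 7.89 to 8.13) held 1430.6 CPM of the other licensing genes and 689 CPM of histone genes, and the 100 just outside (7.66 to 7.88) held 1443 and 963.

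Genes outside the rule were then compared. A gene was called higher at a ratio of at least 1.5 between the CPM of the G1/S cells and that of the other kept cells, and lower at 1/1.5 or less, among the 11848 genes with at least 5 CPM over all kept cells. By this measure 441 genes (3.72%) were higher and 293 (2.47%) lower, and the median ratio over all of them was 0.97. Counted as UMIs per cell in place of CPM, 298 were higher and 481 lower. The gene lists below were chosen with earlier results of these data known, and each count is to be read against those percentages.

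Most origin licensing genes outside the rule were higher, with the loader CDC6 at the top and subunits of the origin recognition complex at the bottom. Of 14 licensing genes outside the rule, 9 were higher and none lower, with a median ratio of 1.65. Summed, they were at 1575 CPM (1560 to 1590) in the G1/S cells and 955 CPM (951 to 960) in the others. CDC6, which brings the ring to the origin, was at 99.7 CPM against 28.8, a ratio of 3.47 (3.31 to 3.63). CDT1, its partner, was at 35.9 against 17.8 CPM, a ratio of 2.02 (1.88 to 2.17). The ring members outside the rule had ratios of 2.58 for MCM4, 2.01 for MCM3, 1.72 for MCM2 and 1.53 for MCM7. Geminin, the inhibitor of CDT1, was higher too, at 171 against 103 CPM, so that RNA of the loader and of its inhibitor was high in the same group. In the origin recognition complex, ORC1 had a ratio of 1.86 and ORC6 of 1.64. The other four subunits did not reach the limit, with ratios of 1.24 for ORC3, 1.04 for ORC5, 0.88 for ORC4 and 0.87 for ORC2. The list covered 14 of 14 genes with a measurable level, and MCMBP, an MCM-binding protein, stood just under the limit at 1.49. As UMIs per cell, MCM7 was at 1.43 and was not called.

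Origin firing and fork genes followed. Of 16 firing genes, which turn a licensed origin into a pair of forks, 8 were higher and none lower (median ratio 1.58). MCM10 was at 115 CPM against 42.8 (ratio 2.68, 2.57 to 2.79) and CDC45, the helicase cofactor, at 49.3 against 19.5 (2.53, 2.38 to 2.70). CLSPN, a fork checkpoint mediator, had a ratio of 2.33, while DBF4, the activator of the CDC7 kinase, was at 98.1 against 100 CPM and was highest in cells with high mitotic RNA, at 182. Of 26 fork genes, 19 were higher and none lower (median ratio 1.71). PCNA, the sliding clamp, was at 233 against 95.8 CPM (2.43, 2.36 to 2.50), and POLA1, the polymerase that starts new strands, at 356 against 160. In single cells, the median PCNA level was 2.18 UMIs per 10000 (quartiles 1.38 and 3.16) in the G1/S cells and 0.70 (0 and 1.39) in the others. The quartile ranges thus met at their ends, and a single gene did not part the groups.

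Supply genes were higher in part. Of 12 genes of nucleotide supply, 7 were higher (median ratio 1.56), among them DUT, which keeps uracil out of DNA, at 306 against 149 CPM, and thymidine kinase TK1 at 47.2 against 22.4. RRM2, the limiting subunit of ribonucleotide reductase, reached 1.55 (1.45 as UMIs per cell), and DTYMK stood at 0.87. TYMS, DCTPP1 and DCK were also among the 7, and each lost its call under some alternative. Their lowest ratios there were 1.47, 1.494 and 1.493. Of 9 genes of histone supply, 6 were higher (median 2.00), among them NPAT, which fell to 1.31 under an alternative. SLBP, the protein that binds and stabilises histone RNA, was at 108 against 43.5 CPM (2.47, 2.37 to 2.58), and CHAF1B, a subunit of the chromatin assembly factor, at 42.2 against 16.8.

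DNA repair genes had the highest share of higher calls of the lists with 10 or more measured genes. Of 16 with a level to compare, 15 were higher and none lower (median ratio 1.94), and FANCD2, of the Fanconi anaemia pathway, was the exception at 1.22. The exonuclease EXO1 had a ratio of 2.88 (65.8 against 22.9 CPM), the recombination helper RAD54L of 2.45, FANCA of 2.25, BRCA1 of 1.99 and the mismatch reader MSH6 of 1.90. Among 5 DNA methylation genes, UHRF1, which guides DNMT1 to new strands, was at 146 against 55.2 CPM (2.65) and HELLS at 557 against 305 (1.83), whereas DNMT1 stood just under the limit at 1.49 and the de novo enzymes DNMT3A and DNMT3B stood at 0.96 and 0.94.

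The regulators of the G1 to S step were uneven. Of 15 E2F and RB genes, 6 were higher and 1 lower. E2F2 (3.09), E2F8 (2.93), E2F1 (2.82), E2F7 (1.90) and E2F3 (1.59) were higher, both activators (E2F1 to E2F3) and repressors (E2F7 and E2F8). E2F4, E2F5 and E2F6 had ratios of 0.96, 0.91 and 1.15, and RB1 of 1.40. FOXM1, a driver of mitotic genes, was lower at 29.2 CPM, a ratio of 0.585 (0.543 to 0.629). Of 14 measured cyclin, CDK and inhibitor genes, 3 were higher and 3 lower. Cyclin E1 (CCNE1), which was not in the rule, was at 57.4 CPM (54.6 to 60.4), a ratio of 3.83 (3.60 to 4.07), and its kinase CDK2 had 1.75 and the phosphatase CDC25A 2.08. Cyclin A2 (CCNA2) was lower at 33.1 against 65.1 CPM (0.51, 0.48 to 0.55). The D cyclins of early G1 did not differ by the limit, with 1.06 for CCND1, 1.04 for CCND2 and 1.18 for CCND3. The CDK inhibitors CDKN1A (0.47) and CDKN1C (0.61) were lower. CDKN1A was at 3.14 CPM in the G1/S cells and passed the minimum of 5 CPM only through the other cells. It is counted again among the p53 targets below. Of 11 S-phase entry controls, FBXO5, an inhibitor of the APC/C ligase, and the kinase CHEK1 were higher (1.85 and 1.51), and FZR1, an APC/C activator, was lower, with a ratio of 0.625 (0.532 to 0.731). Several of these calls depended on the processing. With cells thinned to 5000 UMIs and the members chosen anew on the thinned counts, which kept 66.8% of them, FOXM1 (0.798), FZR1 (0.736) and CDKN1A (0.721) were no longer called. With the members kept and only the counts thinned, they were at 0.663, 0.642 and 0.457. CDKN1C (0.703) was not called with the study's filter alone, nor were E2F3 (1.48) and CHEK1 (1.40) as UMIs per cell.

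**Figure D1:**
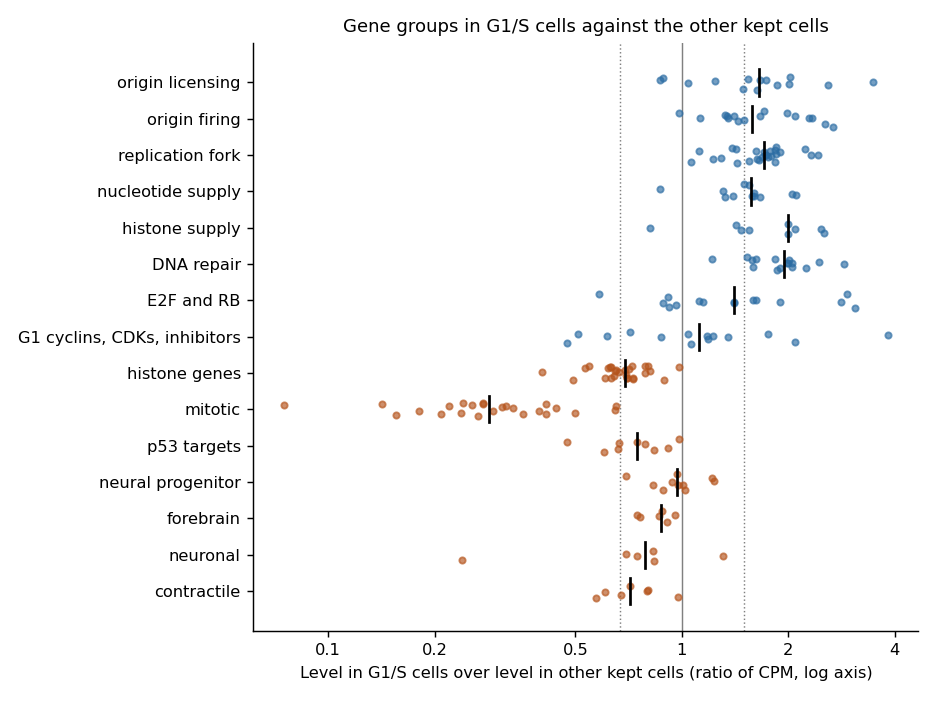
Ratio of the level in the G1/S cells to the level in the other kept cells (log axis), 1 point per gene with at least 5 CPM, for 15 gene groups. Black bars are medians, the solid line marks 1 and the dotted lines the 1.5-fold limits. The fork and repair genes lie mostly right of the upper limit, 8 of 16 firing genes do, and all 24 mitotic genes lie left of the lower one.

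Mitotic RNA was low, and histone RNA was lower in part. All 24 mitotic genes were lower (median ratio 0.28), and their sum was 1290 CPM against 3836. PLK1, the mitotic kinase, was at 5.57 against 39.3 CPM (0.14, 0.12 to 0.17), TOP2A, which untangles chromosomes, at 86.5 against 414, and MKI67, the proliferation marker, at 73.7 against 232. CDK1 and BUB1B were the mildest, both at 0.65, and they were not called at 0.829 and 0.812 with members chosen anew on thinned cells, nor at 0.779 and 0.728 with the members kept and the counts thinned. PLK1 and TOP2A moved to 0.253 and 0.336 in the first of these settings, but stayed lower. Of 71 histone symbols beginning HIST1H, HIST2H, HIST3H or HIST4H, 27 had a level to compare. Of these, 13 were lower and none higher (median 0.69). The sum over all 71 was 676 against 1007 CPM, a ratio of 0.671 that did not reach the limit. HIST1H4C was at 276 against 437 CPM (0.63, 0.62 to 0.65), and HIST1H1B, a linker histone, at 44.9 against 63.3 (0.71). Histone genes lie in clusters of near-identical copies, and reads shared between copies leave single values uncertain. How fully 3′ sequencing captured histone RNA was not tested. The histone sum, and the groups of cells ranked by it, rest on the part that was captured. In single cells, HIST1H4C had a median of 1.20 UMIs per 10000 (quartiles 0.57 and 2.73) in the G1/S cells, but in the others a median of 0.96 with an upper quartile of 5.63. The median was not lower in the G1/S cells, and the lower sum lay in the upper tail. Only 70 G1/S cells (4.77%, 3.73 to 5.98%) were among the 12% of kept cells with the most histone RNA, and 1 was among the 12% with the most mitotic RNA. Kept cells were also ranked by mitotic RNA and divided into 4 equal ranges. From lowest to highest, these held 199, 861, 395 and 14 (0.953%) G1/S cells. Ranked by histone RNA instead, the ranges held 361, 415, 432 and 261 (17.8%).

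Next, 3 reference groups of non-member cells set the G1/S cells beside their neighbours in the cycle. The histone-high cells (1399) came from the top 12% by histone RNA, the mitosis-high cells (1468) from the top 12% by the mitotic list, and the low-cycle cells (1469) from the bottom 12% by the sum of rule, licensing, firing, fork, nucleotide, histone supply, histone and mitotic RNA, so the genes that chose a group are no result in its comparison. Their median depth differed, at 20319, 24482.5 and 13142 UMIs. Against the histone-high cells 341 of 11821 genes (2.88%) were higher and 274 (2.32%) lower in the G1/S cells, against the mitosis-high cells 744 of 11824 (6.29%) and 500 (4.23%), and against the low-cycle cells 1529 of 11720 (13.0%) and 1153 (9.84%).

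In replication genes the G1/S cells were nearer to the histone-high than to the mitosis-high cells. Against them 4 of 14 licensing genes and 1 of 26 fork genes were higher and none lower, with median ratios of 1.20 and 1.12. Against the mitosis-high cells 6 of 14 and 16 of 26 were higher, with median ratios of 1.41 and 1.57. The histone sum was at 676 CPM in the G1/S cells and 640 in the mitosis-high cells. It was 3466 and 236 CPM in the histone-high and low-cycle cells, which it helped to choose. CCNE1 was at 57.4 CPM in the G1/S cells, 25.5 in the histone-high, 6.08 in the mitosis-high and 4.59 in the low-cycle cells. E2F1 was at 85.8, 31.7, 22.7 and 7.89 CPM in the same order, and CDC6, which helped to choose the low-cycle cells, at 99.7, 47.9, 15.9 and 2.20. RRM2 and TYMS, the enzymes of deoxynucleotide and thymidylate synthesis, were instead highest in the histone-high cells, RRM2 at 150 and TYMS at 342 CPM, against 103 and 254 in the G1/S cells. Across the 3 cycling groups, 11 of 14 licensing genes, 20 of 26 fork genes and 13 of 16 repair genes were highest in the G1/S cells, as were 3946 of all 11848 genes.

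**Figure D2:**
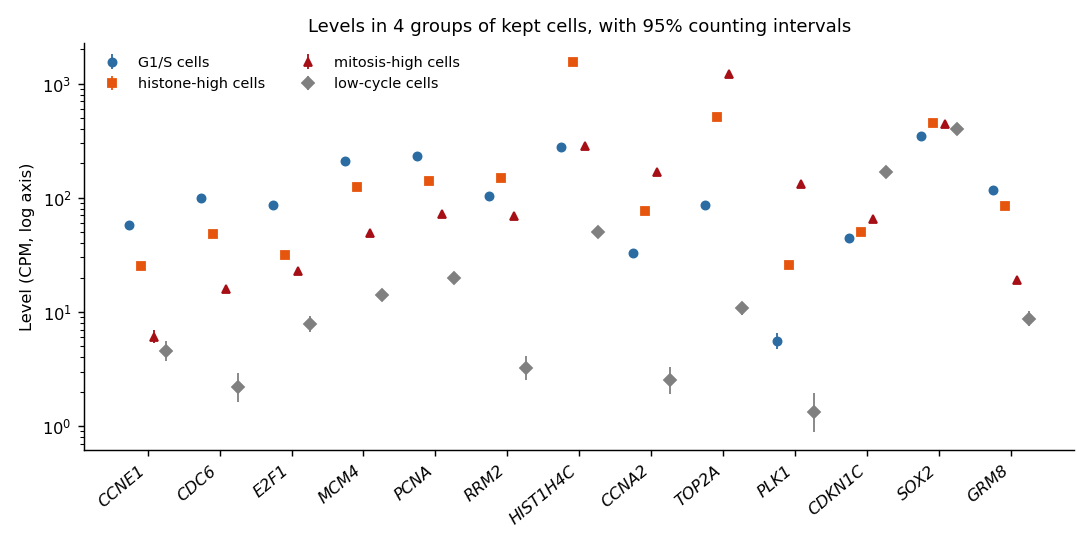
Level in CPM (log axis) of 13 genes in the G1/S, histone-high, mitosis-high and low-cycle cells, with 95% counting intervals. CCNE1, CDC6 and E2F1 are highest in the G1/S cells, RRM2 and HIST1H4C in the histone-high cells, CCNA2, TOP2A and PLK1 in the mitosis-high cells and CDKN1C in the low-cycle cells. HIST1H4C helped to choose the histone-high cells, TOP2A and PLK1 the mitosis-high cells, and these 3 with CDC6, MCM4, PCNA and RRM2 the low-cycle cells.

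Levels were graded over bins of the score, which rests on 18.8 UMIs per G1/S cell and 5.08 per other cell. Members chosen on a random part of each cell's molecules shared 76.2% of the group. The bins therefore cannot tell a gradual change from a step blurred by counting error. The other kept cells were divided by score into 8 bins of about 11% of the kept cells each, with the G1/S cells as bin 9. The licensing sum rose at each of the 8 steps, from 592 CPM in bin 1 to 1375 in bin 8 and 1575 in bin 9. CDC6 went from 5.70 to 99.7 CPM, and PCNA from 37.1 to 233. Mitotic RNA took another course, from 3522 CPM in bin 1 to a highest value of 4925 in bin 3 and down to 1290 in bin 9. Histone RNA was highest in bin 6, at 1220 CPM, and was 676 in bin 9 and 639 in bin 1. Of the 441 higher genes, 202 (45.8%) rose at every step, against 446 (3.76%) of all 11848 compared. This is a description only, since the bins were cut on the score and the genes were called on the top bin against the rest. CDKN1C, an inhibitor linked to leaving the cycle, was lower at every step, from 118 to 44.1 CPM.

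**Figure D3:**
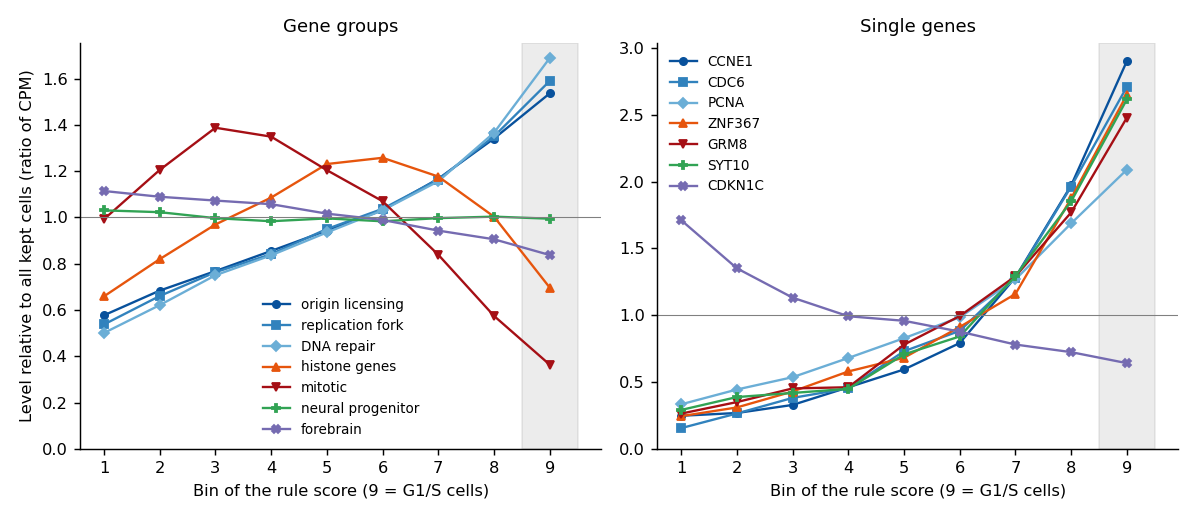
Level relative to all kept cells (ratio of CPM) over 9 bins of the rule score, for gene groups (left) and single genes (right). The shaded bin 9 is the G1/S cells. The sums of the licensing, fork and repair genes climb at every step, though not every gene in them does. Mitotic RNA is highest in bin 3 and histone RNA in bin 6.

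The sequence before the start of some of these genes holds E2F letters. RefSeq promoters on GRCh38.p14 were searched in the 250 bases before the start, on both strands, for the E2F octamers TTTCCCGC, TTTGGCGC, TTTCGCGC and TTTGCCGC, for CCAAT, and for the CHR hexamer TTTGAA, a motif known from mitotic genes. An E2F octamer stood in 38 of 337 matched promoters of higher genes (11.3%), in 6 of 225 of lower genes (2.67%), in 4.56% of 9478 for genes compared and in 2.79% of all 35116 promoters in the table. Among the licensing genes 4 of 13 matched promoters held one, namely MCM3, MCM7, CDT1 and ORC3, although ORC3 was not called higher. The other groups ran both ways. Fork genes held one in 6 of 20, but firing and repair genes in 1 of 13 each and higher genes in no list in 6.96%, while of the lower groups 5 of 23 histone promoters and 2 of 20 mitotic promoters held one. The promoter of CDC6 held none in this window. CCAAT was in 60.0% of lower genes, 36.2% of higher genes, 3411 of the 9478 promoters of genes compared and 32.0% of all promoters. TTTGAA was in 28.4% of lower genes, 6.82% of higher genes, 8.54% of genes compared and 13.3% of all, and 18 of 20 mitotic promoters held CCAAT and 12 held TTTGAA. A match is a run of letters and not a measured binding site. Only exact letters were searched, so a promoter without a match may still hold a site. The search covered a single annotated start per gene, and other starts of the same gene were not searched.

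The promoters of 7 genes are shown, 5′ to 3′ on the gene's strand and ending at the base before the start. MCM6 is a rule gene (chr2:135876444-135876693, minus), MCM3 and CDT1 are licensing genes (chr6:52284743-52284992, minus, and chr16:88803539-88803788, plus), E2F1 is a regulator (chr20:33686386-33686635, minus), and ZNF367 (chr9:96418371-96418620, minus) and GRM8 (chr7:127252942-127253191, minus) are higher genes from outside the lists, the latter with no match. Capitals mark E2F octamers on either strand, and in MCM6 they overlap in pairs. PLK1 (chr16:23678639-23678888, plus) stands for the lower mitotic genes, and there capitals mark CCAAT and TTTGAA.
MCM6: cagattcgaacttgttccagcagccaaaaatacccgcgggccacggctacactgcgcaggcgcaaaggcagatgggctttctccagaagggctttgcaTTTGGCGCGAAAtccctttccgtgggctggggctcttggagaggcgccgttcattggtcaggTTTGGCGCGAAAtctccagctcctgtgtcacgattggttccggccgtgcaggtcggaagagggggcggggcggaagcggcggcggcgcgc
MCM3: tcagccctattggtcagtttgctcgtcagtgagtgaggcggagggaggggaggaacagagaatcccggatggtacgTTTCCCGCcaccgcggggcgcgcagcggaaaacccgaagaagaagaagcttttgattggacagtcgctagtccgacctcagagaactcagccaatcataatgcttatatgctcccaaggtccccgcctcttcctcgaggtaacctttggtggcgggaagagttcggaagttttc
CDT1: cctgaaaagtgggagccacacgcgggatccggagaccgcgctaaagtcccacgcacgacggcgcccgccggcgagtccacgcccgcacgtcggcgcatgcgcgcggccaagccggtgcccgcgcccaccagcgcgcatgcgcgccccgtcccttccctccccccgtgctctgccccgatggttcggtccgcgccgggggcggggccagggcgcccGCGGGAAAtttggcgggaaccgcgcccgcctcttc
E2F1: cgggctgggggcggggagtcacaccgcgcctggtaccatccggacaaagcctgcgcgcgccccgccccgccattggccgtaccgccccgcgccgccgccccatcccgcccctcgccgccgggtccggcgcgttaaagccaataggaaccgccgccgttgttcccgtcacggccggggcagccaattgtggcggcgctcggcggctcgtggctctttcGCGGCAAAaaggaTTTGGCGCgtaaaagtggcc
ZNF367: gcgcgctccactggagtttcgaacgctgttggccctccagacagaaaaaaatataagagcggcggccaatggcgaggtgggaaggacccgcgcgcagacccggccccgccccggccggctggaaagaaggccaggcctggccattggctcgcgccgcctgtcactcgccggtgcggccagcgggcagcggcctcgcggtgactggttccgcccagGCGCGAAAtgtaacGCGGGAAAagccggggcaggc
GRM8: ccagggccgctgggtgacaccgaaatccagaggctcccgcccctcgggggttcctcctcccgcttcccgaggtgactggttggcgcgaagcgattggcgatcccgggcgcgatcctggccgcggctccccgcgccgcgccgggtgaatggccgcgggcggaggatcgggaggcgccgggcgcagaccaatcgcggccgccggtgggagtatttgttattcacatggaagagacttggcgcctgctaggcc
PLK1: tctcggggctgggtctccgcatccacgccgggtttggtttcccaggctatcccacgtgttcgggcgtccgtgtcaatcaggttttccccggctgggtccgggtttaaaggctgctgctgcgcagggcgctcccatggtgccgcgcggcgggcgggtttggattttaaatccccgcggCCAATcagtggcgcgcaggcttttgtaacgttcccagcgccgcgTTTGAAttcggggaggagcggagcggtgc

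Of the 441 higher genes, 364 were in none of the lists. Each of the 15 of these with the highest ratios had its highest level of the 3 cycling groups in the G1/S cells, as 412 of all 441 did and as the choice by ratio nearly fixes. For MYO3A, at 11.7 CPM (10.4 to 13.0) against 10.6 in the histone-high cells, the counting intervals overlapped. ZNF367, a zinc finger factor, led at 71.4 CPM (68.3 to 74.7) against 21.3 (3.36, 3.18 to 3.54). PKMYT1, a kinase that holds CDK1 inactive, was at 21.1 against 8.04 CPM, and ATAD2, a chromatin ATPase, at 229 against 92.2. Several others are better known from nerve cells. GRM8, a metabotropic glutamate receptor, was at 118 CPM (114 to 122) against 38.5. SYT10, a synaptotagmin of vesicle release, was at 37.7 against 11.4 CPM, and NXPH2, a ligand of neurexins, at 22.1 against 6.98. LRRC26 (3.28), PAQR4 (2.76), MYO3A (2.65), BICDL1 (2.64), ABHD3 (2.49), JPH1 (2.47), LHFPL3 (2.47) and the unnamed transcripts AC087632.1 (2.85) and AC011466.3 (2.65) made up the rest. LRRC26 and MYO3A, at 4.65 and 4.40 CPM in the other cells, were 2 of the 22 higher genes that passed the minimum only through the G1/S cells, and 68 of the 293 lower genes were under it in the G1/S cells. JPH1 lost its call with the study's filter alone, where its ratio was 1.47. GRM8 was at 84.1 CPM in the histone-high cells, 19.2 in the mitosis-high and 8.75 in the low-cycle cells, and over the 9 score bins it went from 12.5 to 118. In single cells it had a median of 0.73 UMIs per 10000 (quartiles 0 and 1.83) in the G1/S cells and of 0 (0 and 0.45) in the others. Higher genes had long gene bodies, with a median span of 64.6 kb against 41.5 kb for all genes compared and 32.3 kb for lower genes. Their part in the counts, through reads from introns, was not tested.

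**Figure D4:**
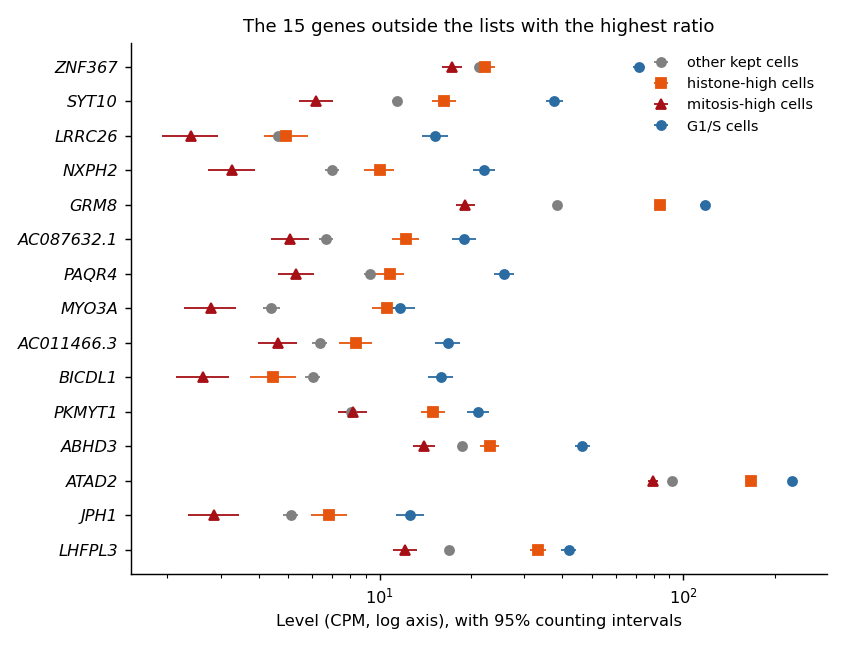
Level in CPM (log axis), with 95% counting intervals, of the 15 genes outside the lists with the highest ratio, in the other kept cells and in the histone-high, mitosis-high and G1/S cells. Each gene is highest in the G1/S cells, from 11.7 CPM for MYO3A to 229 CPM for ATAD2.

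At the lower end, the 10 leading genes outside the lists were highest in the mitosis-high cells among the 3 cycling groups in 8 cases, as were 222 of all 293 lower genes and 5047 of the 11848 compared. CDCA3, which triggers mitotic entry, was at 4.49 against 32.6 CPM (0.14), and DLGAP5, a spindle protein, at 25.4 against 153. APOLD1 (0.20), AC099850.2 (0.24), PSRC1 (0.24), TNFAIP8L1 (0.27), PRR11 (0.31) and GAS2L3 (0.32) shared this pattern. SGCZ, a sarcoglycan, and RUNX1T1, a transcriptional corepressor, did not. With members chosen anew on thinned cells the ratios of CDCA3 (0.260), DLGAP5 (0.314), APOLD1 (0.327), PSRC1 (0.381), TNFAIP8L1 (0.457) and AC099850.2 (0.466) were less extreme but still under the limit. SGCZ was at 0.75 CPM in the G1/S cells and 41.7 in the low-cycle cells, with a ratio to the other kept cells of 0.11 (0.054 with members chosen anew on thinned cells and 0.230 with 20% of cells as members), and RUNX1T1 at 2.24 and 39.3.

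Markers of neural progenitors were present in the G1/S cells. Of 10 measured progenitor genes none was higher or lower, with ratios from 0.70 (HES1, 79.9 against 115 CPM) to 1.23 (HES5, 219 against 177), and SOX2, a core progenitor factor, was at 349 against 421 CPM (0.83, 0.81 to 0.85). With the study's filter alone, which adds back the cells high in ANXA1, TFPI2 and CTGF, HES5 (1.53) and FABP7 (1.51) were past the limit and VIM (0.550) was below it, and HES1 was at 0.648 as UMIs per cell. Of 6 measured forebrain genes none reached the limit. Their sum was 989 CPM in bin 9 and fell at each step from 1316 in bin 1, with SIX3 at 258 against 337 CPM and the receptor FZD5 at 210 against 282. Of 6 measured neuronal genes, STMN2, a marker of young neurons, was lower at 7.33 against 30.6 CPM, and INA, a neurofilament-like protein, was at 22.8 against 17.5. The neuronal list did not order the groups 1 way. Against the histone-high cells 2 of the 6 were higher and none lower (median 1.34), and the list's sum was 134 CPM in the G1/S cells, 107 in the histone-high, 114 in the mitosis-high and 578 in the low-cycle cells. NEUROD1 had no UMI in the G1/S cells, against 1.51 CPM in the others. The 3 counts that a count of 0 allows come to 0.112 CPM. Of 7 measured contractile genes TAGLN (0.57) and CNN1 (0.61) were lower, and the contractile sum of single cells had a median of 9.52 UMIs per 10000 and a highest value of 205 in the G1/S cells, against 10.2 and 308 in the others, so cells with much contractile RNA stayed in both groups. Neither call was stable. TAGLN was at 0.712 with members chosen anew on thinned cells and 0.328 with the study's filter alone, and CNN1 at 0.839 without the 8% of cells with the most UMIs and 0.386 with the study's filter alone. Pluripotency genes LIN28A and DPPA4 were measured at 0.99 and 1.01, while POU5F1 and NANOG stood below 0.5 CPM. Of 6 endoderm and mesoderm markers, SOX17, FOXA2 and TBXT had no UMI in the G1/S cells, GATA4 and GATA6 were at 0.037 CPM each and MIXL1 at 0.30 CPM against 0.24 in the others.

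Some targets of p53 were lower. Of 9 measured, 4 were lower and none higher (median ratio 0.75): the CDK inhibitor CDKN1A at 3.14 against 6.62 CPM, the death factor BBC3 at 7.52 against 12.5, TP53INP1 at 18.4 against 27.8 and BTG2 at 12.8 against 19.3. Beside them MDM2 stood at 0.92 and SESN1 at 0.98. Each of the 4 calls was lost under some alternative. BBC3 (0.704), TP53INP1 (0.743) and BTG2 (0.761) lost theirs with 20% of cells as members. CDKN1A lost its own with members chosen anew on thinned cells (0.721), and its ratio was 0.211 with the study's filter alone. Against the histone-high cells 5 of the 9 were lower and none higher (median 0.66), with a sum of 381 CPM against 535. Against the mitosis-high cells none was higher or lower (median 1.07), with a sum of 381 against 399. Of the genes the study follows, SMG6, the host of HAR123, had a ratio of 0.97 and HIC1 stood at 0.30 CPM against 0.40, below the minimum.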

How the data were processed

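Single-cell RNA was measured by 3′ 10x Chromium sequencing in 1 library of hHAR123 cells. The authors deposited raw counts, that is, UMIs per gene and cell barcode for 33538 genes and 14726 barcodes, without normalization. The submitters' processing notes name Cell Ranger 7.0.1, Seurat 4.4.0 and GRCh38. The study's methods state default settings for Cell Ranger, which in this version include intron reads. The version of the gene annotation is not given in the sources used here. With 1 barcode suffix in the table, cells cannot be traced to a loading well.

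Counts were summed per group of cells and divided by the group's UMIs (CPM), with exact Poisson intervals. Ratios carry exact conditional intervals and shares exact binomial (Clopper-Pearson) intervals, all at 95% and for counting error only, since cells are not replicates and reads of 1 library share its preparation. A gene was compared at 5 CPM or more over the kept cells. The 8 rule genes were left out. With 1 library no p-value was computed. Named genes are all genes of the lists, and the 15 genes with the highest and 10 with the lowest ratio in no list. The members and lists were chosen with earlier results of these data known. The study's upper limit on detected genes was its step against multiplets. No doublet caller was run here, and an alternative left out the 8% of kept cells with the most UMIs. There were 12 alternatives. Thinning, the study's filter alone and leaving out the 8% of cells each also chose the members anew. The split of molecules chose them on part of the counts and read the rest. The ratio step was tested on simulated pooled counts with counting error only and with known changes beyond the 1.5-fold limit. The simulation held no spread between cells and no choice of members by a score. It therefore checked the calculation and not the calls made here. Gene spans came from GENCODE version 44 and promoters from RefSeq (GRCh38.p14). Scripts used pandas 2.3.3, matplotlib 3.10.9, scipy 1.17.1 and numpy 2.4.6 under Python 3.11.15.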

Additional observations from a re-analysis of the deposited data

How the results depend on the processing

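No paired analysis was possible because there was 1 library and no test. Single histone genes were not run under the alternatives. Of the 137 other named genes called higher or lower, each kept its side of 1 under each of the 10 alternatives that changed cells or scaling. Under these, 125 to 135 of them were still called. The genes had been picked for ratios past the limits in these same cells, so keeping their side of 1 was largely set in advance. The minimum level set the counts most. With no minimum, 3276 genes were higher and 6914 lower, and at 20 CPM 211 and 134. With UMIs per cell in place of CPM, 481 genes were lower, and with the study's filter alone 569. The licensing ratio of 1.65 was 1.62 when cells were chosen on part of each cell's molecules and read on the rest, 1.60 with cells thinned to 5000 UMIs and members chosen anew on them, 1.54 as UMIs per cell, 1.71 as the mean of per-cell CPM, 1.70 with the study's filter alone and 1.68 without the 8% of cells with the most UMIs. The histone ratio of 0.671 and the mitotic ratio of 0.336 were 0.612 and 0.329 with 6% of cells as members, 0.773 and 0.384 with 20%, 0.780 and 0.360 with equal weight per rule gene, 0.724 and 0.360 in the split of molecules, 0.815 and 0.464 after thinning, 0.625 and 0.314 as UMIs per cell, 0.705 and 0.383 as the mean of per-cell CPM, 0.797 and 0.369 with the study's filter alone, 0.651 and 0.357 without the cells with the most UMIs, and 0.540 and 0.317 without members high in histone or mitotic RNA. With the members kept and only the counts thinned, the licensing, histone and mitotic ratios were 1.69, 0.714 and 0.379. The cause of these shifts was not tested. Thinning left out 14 kept cells, 2 of them members, and choosing on thinned cells shared 66.8% of the members.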

Other observations

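The G1/S cells also differed from the low-cycle cells in several lists whose genes chose neither group. The low-cycle cells were cut for little cycle RNA, so these differences are not independent of that cut. The p53 list also holds the CDK inhibitor CDKN1A. All 6 measured neuronal genes were lower in the G1/S cells, with a median ratio of 0.29, and 6 of 9 p53 targets were lower and none higher (median 0.42), against a background of 9.84% of genes lower. Contractile and crest markers went the same way, with 4 of 7 contractile genes (median 0.65) and 1 of 2 crest genes lower. Their part in the result was not tested. Other marker lists did not, with none of 6 forebrain, 2 pluripotency and 2 epithelial genes called. Of 10 progenitor genes 1 was higher and 1 lower (median 0.998). All 16 measured repair genes were higher (median 16.0), against a background of 13.0% of genes higher. STMN2 was at 7.33 CPM in the G1/S cells and 186 in the low-cycle cells, and the notch ligand DLL3 at 9.05 and 37.7. Genes outside the lists were picked here after their values were seen. KCNIP4, a potassium channel partner, was at 17.9 CPM in the G1/S cells and 137 in the low-cycle cells, DCC, an axon guidance receptor, at 64.1 and 405, and SYP, a synaptic vesicle protein, at 2.92 and 17.4. NXPH2 went the other way, at 22.1 and 0.383 CPM. The low-cycle cells were shallower, with a median of 13142 UMIs against 17136, and the part of depth in these ratios was not tested.

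Against the histone-high cells, some genes stood apart that did not stand apart from all other kept cells. They too were picked after their values were seen. FBXL20, a ubiquitin ligase subunit, was at 111 CPM in the G1/S cells and 33.0 in the histone-high cells, a ratio of 3.36 (3.12 to 3.61), but its ratio to all other kept cells was 1.40. PLAUR, the urokinase receptor, was at 13.4 and 4.87 CPM, with 1.45 against all others. BICDL1 (15.9 and 4.47 CPM), ADCY9, an adenylate cyclase (12.8 and 4.10), and E2F1 (85.8 and 31.7) were among the genes with the highest ratios in this comparison, and BICDL1 had the highest. FBXL20 and PLAUR were thus not particular to the G1/S cells among all kept cells. The histone-high levels of BICDL1 and ADCY9 rest on 134 and 123 UMIs.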
